A study of Homo sapiens with 3 samples.

Results

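Integrin and laminin subunits are the 38 protein-coding genes whose symbols name an integrin α or β subunit (ITGA1 to ITGA11, ITGA2B, ITGAD, ITGAE, ITGAL, ITGAM, ITGAV, ITGAX and ITGB1 to ITGB8) or a laminin α, β or γ chain (LAMA1 to LAMA5, LAMB1 to LAMB4 and the LAMC genes). They were chosen by symbol alone from the 58735 genes of the deposited table. There were 26 integrin and 12 laminin genes. Their mRNA was read by sequencing in HGC-27, an established human line of gastric cancer cells kept in medium with serum. A pair of libraries carried a short hairpin RNA against USP16, which encodes a deubiquitinase (genotype shUSP16, libraries shUSP16-1 and shUSP16-2). The third library carried a control hairpin (shControl, Scramble in the table, genotype WT). Whether shUSP16-1 and shUSP16-2 are different hairpins or repeats of one is not stated. The protocol text of all 3 libraries also describes dexamethasone, isobutylmethylxanthine and insulin, and whether these cells received them is not clear from it.

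Integrins are cell-surface receptors made of one α and one β subunit, which bind proteins of the extracellular matrix or other cells and link them to actin through talin and kindlin. Laminins are the main cell-adhesive glycoproteins of basement membranes, each assembled inside the cell from an α, a β and a γ chain. Epithelial cells attach to laminin chiefly through integrins that pair α3 with β1, or α6 with β1 or β4, and to fibronectin chiefly through α5 with β1. In carcinomas, both families are studied for their part in invasion through the basement membrane.

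Levels are FPKM, fragments per kilobase of gene length scaled to library size. For the members, gene length was the union of all annotated exons, not the length of the transcript made. Levels of different genes therefore compare only roughly. Reads assigned to genes numbered 29530581 in shUSP16-1, 31187845 in shUSP16-2 and 30131136 in shControl. USP16 itself had 4.29 FPKM in shUSP16-1 and 5.98 FPKM in shUSP16-2, against 6.28 FPKM in shControl. Set against shControl, shUSP16-1 stood at 0.683 of its level, with an exact binomial 95% interval on the reads of 0.621 to 0.749, while shUSP16-2 stood at 0.952, between 0.875 and 1.04. Scaled to sums of reads, the ratios were 0.639 (0.582 to 0.702) in shUSP16-1 and 0.876 (0.805 to 0.953) in shUSP16-2. The interval of shUSP16-2 thus held 1 with the authors' totals and lay below it with sums of reads. The targeted gene passed no test (limma adjusted p = 0.564), and every direction below rests on the labels. The labels name no separate cultures: the p-values below therefore rest on the spread of these libraries alone, which may be technical. The spread of shControl, with 1 library, is unknown. The 4 mesenchymal markers summed to 168 and 190 FPKM in shUSP16-1 and shUSP16-2 and to 165 FPKM in shControl, nearly all of it VIM, an intermediate filament gene, while CDH2, encoding N-cadherin, had 2 and 8 reads in shUSP16-1 and shUSP16-2, against 10 reads in shControl. The 6 gastric epithelial markers (MUC5AC, MUC6, TFF1, TFF2, PGC and GKN1) reached at most 0.0842 FPKM, and 3 of them had no read in any library. The 7 epithelial markers summed to 3.83 and 2.63 FPKM in shUSP16-1 and shUSP16-2 and to 4.19 FPKM in shControl, with KRT19 at 0 in all 3 libraries and CDH1, encoding E-cadherin, at 2 reads in shUSP16-1 and 0 in the others. MUC1 was the highest of them, at 2.62 and 1.74 FPKM in shUSP16-1 and shUSP16-2, against 2.39 FPKM in shControl. The 5 fibroblast markers summed to 108 and 135 FPKM in shUSP16-1 and shUSP16-2 and to 98.8 FPKM in shControl. COL1A1 had 71.1 and 78.4 FPKM, against 52.2 FPKM in shControl, and PDGFRA and PDGFRB also lay above shControl in both. PDGFRA had 1350 and 1457 reads, against 1410 in shControl, and scaled to sums of reads it lay slightly below shControl in both. LUM had 22.9 and 38.3 FPKM, against 32.2 FPKM in shControl, and DCN 8.71 and 12.2 FPKM, against 9.51 FPKM. LUM and DCN were thus lower in shUSP16-1 and higher in shUSP16-2. Defining markers of gastric epithelium were thus at or near 0. The 5 platelet markers summed to 1.52 and 1.68 FPKM in shUSP16-1 and shUSP16-2 and to 2.08 FPKM in shControl, nearly all of it GP1BA, with PF4, PPBP and GP9 at 0 in every library. Of 4 endothelial markers, PECAM1, CDH5 and KDR had 0 reads in every library, and VWF had 6 and 4 reads in shUSP16-1 and shUSP16-2, against 7 reads in shControl. The part of any of these levels in the results below was not tested.

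Levels of the members differed widely, and 17 of the 38 (10 integrins and 7 laminins) had a mean of at least 1 FPKM over the 3 libraries, the level required for testing; the highest, LAMB1, was exceeded by 6.40% of the genes tested. These 17 were LAMA1, LAMA2, LAMA3, LAMA5, LAMB1, LAMB2, LAMC1, ITGA2, ITGA3, ITGA4, ITGA5, ITGA6, ITGA7, ITGAE, ITGAV, ITGB1 and ITGB5. The other 21 lay below 1 FPKM, with ITGA2B the highest of them at a mean of 0.849 FPKM, and LAMB3 and ITGB6 had 0 reads in every library. In such bulk libraries, fewer cells that express a gene and less RNA per cell cannot be told apart.

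**Figure D1:**
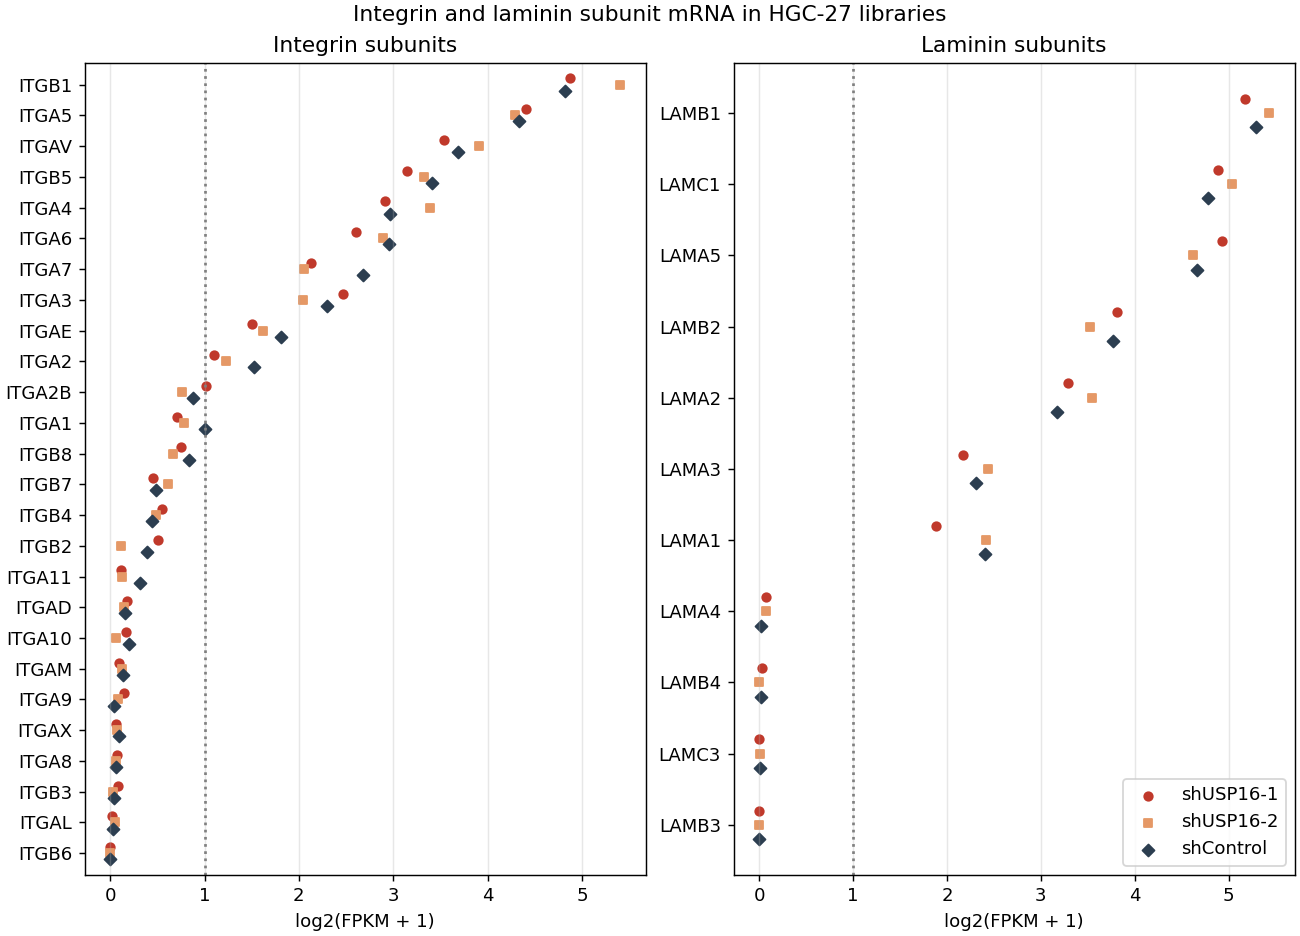
Level of each of the 26 integrin genes and of 11 laminin genes as log2(FPKM + 1), 1 point per library. The dotted line marks 1 FPKM. The 3 libraries lie close together for most genes, and the genes fall into an expressed set led by LAMB1 and ITGB1 and a set near 0.

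Among laminin chains, LAMB1, LAMC1 and LAMA5 had the highest level in their class in every library. LAMB1, the β1 chain (ENSG00000091136, chromosome 7, 107923799 to 108003255, minus strand, GRCh38), had 35.0 FPKM in shUSP16-1 and 42.1 FPKM in shUSP16-2, against 38.3 FPKM in shControl. LAMC1, the γ1 chain shared by most laminins (ENSG00000135862, chromosome 1, 183023460 to 183145592, plus strand), had 28.5 and 31.8 FPKM in shUSP16-1 and shUSP16-2, against 26.4 FPKM in shControl. LAMC1 lay above shControl in both libraries labelled shUSP16, while LAMB1 lay below it in shUSP16-1 and above it in shUSP16-2. LAMA5, the α5 chain of many adult epithelial basement membranes (ENSG00000130702, chromosome 20, 62307955 to 62367312, minus strand), had 29.4 and 23.7 FPKM in shUSP16-1 and shUSP16-2, against 24.3 FPKM in shControl. LAMA5 was high in shUSP16-1 alone. It made up 66.2% and 54.8% of the summed laminin α chain FPKM in shUSP16-1 and shUSP16-2 and 59.9% in shControl.

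The second β chain, LAMB2, had 13.0 and 10.5 FPKM in shUSP16-1 and shUSP16-2, against 12.6 FPKM in shControl. LAMA2, the α2 chain best known from muscle and nerve, had 8.76 and 10.7 FPKM in shUSP16-1 and shUSP16-2, against 7.99 FPKM in shControl. LAMA2 was higher in both libraries labelled shUSP16, and LAMB2 was low in shUSP16-2 alone. LAMA1, the α1 chain typical of embryonic basement membranes, had 2.68 and 4.34 FPKM in shUSP16-1 and shUSP16-2, against 4.29 FPKM in shControl. LAMA1 was low in shUSP16-1 alone, with a ratio to shControl of 0.624 (exact binomial 95% interval 0.582 to 0.669), and stood at 1.01 (0.951 to 1.07) in shUSP16-2.

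LAMA3, the α3 chain, had 3.52 and 4.41 FPKM in shUSP16-1 and shUSP16-2, against 3.95 FPKM in shControl, so the libraries labelled shUSP16 lay on either side of shControl. LAMB3, a β chain that joins LAMA3 in the laminin of hemidesmosomes, had 0 reads in all 3 libraries. A count of 0 allows up to 3 reads, which for LAMB3 is 0.0214 FPKM in shUSP16-1, 0.0206 FPKM in shUSP16-2 and 0.0197 FPKM in shControl. The other chains were low as well: LAMA4, the α4 chain of vessel walls, had 17 and 18 reads in shUSP16-1 and shUSP16-2, against 6 reads in shControl, and LAMB4 and LAMC3 had at most 4 reads in any library. Summed FPKM of the α, β and γ chains came to 44.4, 48.0 and 28.6 in shUSP16-1, to 43.2, 52.6 and 31.8 in shUSP16-2 and to 40.5, 50.9 and 26.4 in shControl. The γ class, nearly all LAMC1, was thus the smallest in every library, at 0.594 and 0.605 of the β class in shUSP16-1 and shUSP16-2 and 0.519 in shControl.

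**Figure D2:**
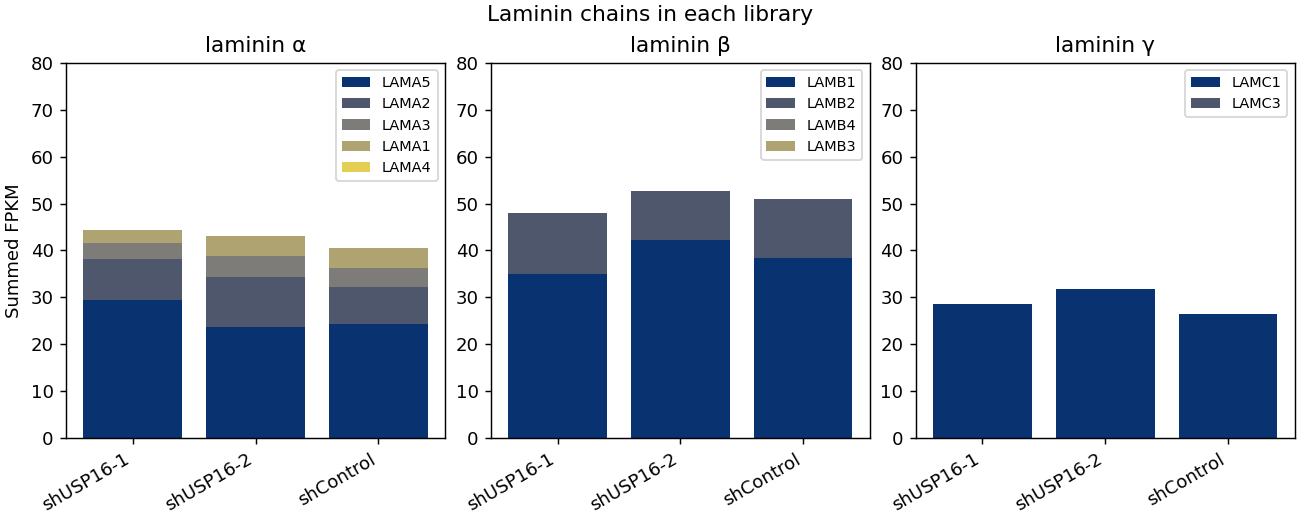
Summed FPKM of the laminin α, β and γ chains in each library, stacked by gene. LAMA5, LAMB1 and LAMC1 fill most of each bar in the 2 libraries labelled shUSP16 and in shControl, and LAMA4, LAMB3, LAMB4 and LAMC3 are too low to see.

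Several members lie next to each other in the genome, and neighbours could differ widely in level. LAMB1 and LAMB4 are 20292 bases apart on chromosome 7 with no protein-coding gene between them, yet LAMB4 had 0.0191 and 0 FPKM in shUSP16-1 and shUSP16-2, against 0.0175 FPKM in shControl. ITGA1 and ITGA2, both collagen receptors, are 30115 bases apart on chromosome 5, and ITGA2 had the higher FPKM in every library. That order rests on gene length, which is 18566 bases for ITGA1 and 7910 for ITGA2. ITGA1 had more reads, 350 and 416 in shUSP16-1 and shUSP16-2 and 608 in shControl. ITGA2 had 271 and 327 reads, and 486 in shControl. Below are the 250 bases before the RefSeq start of these pairs, chosen to show the sequence beside the wide contrast in level within the laminin pair and the smaller one within the integrin pair. Sequences are from RefSeq, GRCh38.p14, on the gene's strand, 5′ to 3′, with each CG dinucleotide in capitals.
LAMB1, chr7:108003162-108003411, minus strand: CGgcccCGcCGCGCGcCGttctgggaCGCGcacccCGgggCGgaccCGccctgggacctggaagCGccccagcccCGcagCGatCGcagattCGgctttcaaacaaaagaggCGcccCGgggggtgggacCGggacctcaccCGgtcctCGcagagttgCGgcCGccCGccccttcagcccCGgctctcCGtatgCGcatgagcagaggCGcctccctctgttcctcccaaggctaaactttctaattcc
LAMB4, chr7:108130362-108130611, minus strand: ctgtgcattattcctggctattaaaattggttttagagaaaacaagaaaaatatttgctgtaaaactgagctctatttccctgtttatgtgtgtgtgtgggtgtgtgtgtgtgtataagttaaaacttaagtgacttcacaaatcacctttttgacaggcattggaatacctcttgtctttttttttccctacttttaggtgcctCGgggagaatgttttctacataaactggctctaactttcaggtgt
ITGA1, chr5:52787666-52787915, plus strand: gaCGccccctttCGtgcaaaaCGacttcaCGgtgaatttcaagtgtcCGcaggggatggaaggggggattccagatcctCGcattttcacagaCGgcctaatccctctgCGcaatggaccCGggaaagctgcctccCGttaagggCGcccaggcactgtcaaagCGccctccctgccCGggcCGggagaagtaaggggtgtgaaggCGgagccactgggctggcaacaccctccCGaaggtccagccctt
ITGA2, chr5:52989102-52989351, plus strand: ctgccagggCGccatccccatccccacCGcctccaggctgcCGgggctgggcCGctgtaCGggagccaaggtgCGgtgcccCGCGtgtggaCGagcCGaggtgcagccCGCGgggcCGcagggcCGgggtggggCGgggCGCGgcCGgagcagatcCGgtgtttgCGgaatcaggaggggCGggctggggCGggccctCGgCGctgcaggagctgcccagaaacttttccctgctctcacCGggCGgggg

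The LAMB1 window held 28 CG dinucleotides and the LAMB4 window 1, where the median over 35116 promoter windows of the same length was 11. The ITGA1 and ITGA2 windows held 16 and 26. RefSeq windows were matched for 26 members. Taking the window with most CG dinucleotides per gene, 11 of 14 matched members with a mean of at least 1 FPKM and 4 of 12 matched members below it held more than 11. That median is over windows taken singly, so these counts run high for genes with several windows. The matching share over all genes was not computed. Over the 33 member windows taken singly the median was 10. The GC box letters GGGCGG, on either strand, were in 51.5% of the 33 member windows and in 42.6% of all windows, with 4 matches each in LAMB1 and ITGA2 and none in LAMB4 and ITGA1. The AP-1 letters TGANTCA, read on both strands, were in 6.06% of member windows (LAMA3 and LAMB3) and in 6.57% of all windows. A match describes the letters of a window, not a bound site.

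Of the β subunits, ITGB1 held most of the mRNA. ITGB1, which pairs with the largest number of α subunits (ENSG00000150093, chromosome 10, 32900319 to 33005792, minus strand), had 28.4 FPKM in shUSP16-1 and 41.4 FPKM in shUSP16-2, against 27.3 FPKM in shControl. It was high in shUSP16-2 and close to shControl in shUSP16-1, with ratios of 1.04 (exact binomial 95% interval 1.00 to 1.08) in shUSP16-1 and 1.52 (1.47 to 1.57) in shUSP16-2. Scaled to sums of reads instead of the authors' totals, the ratio in shUSP16-1 turned to 0.977 and that in shUSP16-2 was 1.40. ITGB5, the vitronectin receptor β chain that pairs with ITGAV (ENSG00000082781, chromosome 3, 124761948 to 124901418, minus strand), had 7.88 and 9.06 FPKM in shUSP16-1 and shUSP16-2, against 9.66 FPKM in shControl. ITGB5 was lower in both, most in shUSP16-1.

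The other β subunits were low. ITGB8, which with ITGAV activates latent TGF-β, had 0.684 and 0.581 FPKM in shUSP16-1 and shUSP16-2, against 0.784 FPKM in shControl. ITGB4, the hemidesmosome partner of ITGA6, had 94 and 84 reads in shUSP16-1 and shUSP16-2, against 79 reads in shControl, all below 0.5 FPKM in level. ITGB3, the platelet and endothelial β subunit, had 8 and 3 reads in shUSP16-1 and shUSP16-2, against 4 reads in shControl, and ITGB6, an epithelial β subunit, had none. ITGB2, the leukocyte β subunit, differed most between the libraries labelled shUSP16, with 86 reads in shUSP16-1 and 17 reads in shUSP16-2, against 69 reads in shControl. ITGB7, found on lymphocytes, had 0.366 and 0.533 FPKM in shUSP16-1 and shUSP16-2, against 0.404 FPKM in shControl. Of its exon bases, 42.1% are also exon of ZNF740 on the other strand, which had 1272 and 1302 reads in shUSP16-1 and shUSP16-2, against 1665 reads in shControl. With the strand setting of the counting not stated, ITGB7 and ZNF740 reads cannot be told apart in that stretch.

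Among the α subunits, ITGA5 was the most abundant. ITGA5, the fibronectin receptor α chain (ENSG00000161638, chromosome 12, 54395261 to 54419460, minus strand), had 20.2 and 18.5 FPKM in shUSP16-1 and shUSP16-2, against 19.2 FPKM in shControl. ITGAV, which binds vitronectin and other ligands with an RGD sequence (ENSG00000138448, chromosome 2, 186590065 to 186680901, plus strand), had 10.6 and 14.0 FPKM in shUSP16-1 and shUSP16-2, against 11.9 FPKM in shControl. Both had the libraries labelled shUSP16 on either side of shControl. ITGA4, which binds VCAM1 and fibronectin, had 6.53 and 9.52 FPKM in shUSP16-1 and shUSP16-2, against 6.83 FPKM in shControl. ITGA4 was high in shUSP16-2 alone.

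ITGA6, a laminin receptor subunit, had 5.08 and 6.43 FPKM in shUSP16-1 and shUSP16-2, against 6.73 FPKM in shControl. ITGA3, another laminin receptor subunit, had 4.54 and 3.14 FPKM in shUSP16-1 and shUSP16-2, against 3.91 FPKM in shControl. ITGA6 was lower in both libraries labelled shUSP16 and ITGA3 only in shUSP16-2. ITGAE, the α chain that binds E-cadherin on T cells, had 1.84 and 2.07 FPKM in shUSP16-1 and shUSP16-2, against 2.50 FPKM in shControl. HASPIN, a kinase gene that lies within ITGAE on the other strand and shares 6.41% of its exon bases, had 4.80 and 5.33 FPKM in shUSP16-1 and shUSP16-2, against 3.96 FPKM in shControl. HASPIN thus lay above shControl in both libraries and ITGAE below it. Leukocyte markers fixed as a list summed to 1.25 and 0.970 FPKM in shUSP16-1 and shUSP16-2 and to 0.867 FPKM in shControl, with 4 of 7 (PTPRC, CD2, CD3E and LYZ) at 0 in every library. CD14, a monocyte marker of that list, had 24 and 19 reads in shUSP16-1 and shUSP16-2, against 0 reads in shControl, and its part in the leukocyte integrin values was not tested. ITGAL, ITGAM, ITGAX and ITGAD, the other leukocyte α subunits, had at most 17, 16 and 18 reads in shUSP16-1, shUSP16-2 and shControl. ITGA2B, the platelet α subunit, had 1.02 and 0.692 FPKM in shUSP16-1 and shUSP16-2, against 0.836 FPKM in shControl, and ITGA8, an RGD-binding subunit, had 12 and 10 reads in shUSP16-1 and shUSP16-2, against 10 reads in shControl.

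Ordered by mean level, the 17 expressed members ran from LAMB1, ITGB1, LAMC1, LAMA5, ITGA5, ITGAV, LAMB2, LAMA2, ITGB5, ITGA4, ITGA6, ITGA7, LAMA3, ITGA3, LAMA1 and ITGAE to ITGA2. For 13 of the 16 neighbouring pairs in this order the ranges over the 3 libraries overlapped. Of these, LAMB1 over ITGB1, ITGA4 over ITGA6, ITGA6 over ITGA7 and ITGAE over ITGA2 still held within every library. The order of the remaining overlapping pairs changed between libraries. Only LAMA5 over ITGA5, ITGA5 over ITGAV, and LAMA1 over ITGAE had ranges that did not overlap. Summed over its 12 known α partners, integrin α mRNA exceeded ITGB1 in each library, with ITGB1 at 0.542 and 0.725 of that sum in shUSP16-1 and shUSP16-2 and 0.476 in shControl.

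The libraries labelled shUSP16 are set against shControl here by label, with USP16 itself at 0.683 of shControl in shUSP16-1 and 0.952 in shUSP16-2. Of the integrin and laminin genes, ITGA7 differed most clearly, being lower in both libraries labelled shUSP16. The collagen receptor α subunits were also lower in both, as were 32.4% of all tested genes, but passed no test. Most laminin chains, ITGA5 and ITGAV had the libraries labelled shUSP16 on either side of shControl. ITGA7, a laminin receptor α subunit best known from muscle (ENSG00000135424, chromosome 12, 55684568 to 55716043, minus strand), had 3.39 FPKM in shUSP16-1 and 3.15 FPKM in shUSP16-2, against 5.40 FPKM in shControl. The shUSP16 mean was 3.27 ± 0.169 FPKM (SD, n = 2), and shControl lay outside their range. Reads were 645 and 622 in shUSP16-1 and shUSP16-2, against 1120 in shControl. The ratios to shControl were 0.627 (exact binomial 95% interval 0.569 to 0.692) in shUSP16-1 and 0.583 (0.528 to 0.644) in shUSP16-2, and 0.588 and 0.537 when scaled to sums of reads. These intervals compare libraries and cover counting error only.

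limma on log2(FPKM + 1) over all 13852 genes tested called 0 members and 0 genes in all (0.0%), with 2008 genes and 1 member at an unadjusted p under 0.05. That member was ITGA7, with a log2 difference of -0.58, an SE of 0.14 and an adjusted p of 0.280. limma with voom, which models the recovered reads, called ITGA7 lower with the authors' totals (log2 difference -0.73, adjusted p = 0.028) and with sums of reads (log2 difference -0.83, adjusted p = 0.00582). It called 2.51% of the 13852 genes with the first totals, 1.04% of all being lower, and 4.02% with the second, 3.02% of all being lower, and no other member. limma on protein-coding genes alone called 0.434% of genes and no member (ITGA7 adjusted p = 0.0836), and where only genes averaging 5 FPKM or more were fitted it called 0.17% and no member. Over 10 alternatives the adjusted p of ITGA7 ran between 0.00582 and 0.357, and 3 of them, all voom, called it. These 3 voom fits lean more on a spread shared over genes than limma on log2(FPKM + 1) does. METTL7B on the other strand shares 44 exon bases with ITGA7, or 0.690% of them, and had 10.8 and 11.1 FPKM in shUSP16-1 and shUSP16-2, against 13.1 FPKM in shControl.

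By size, 0 of the 17 members were at least 1.5-fold higher and 0 at least 1.5-fold lower in both libraries on the log2(FPKM + 1) scale, where 0.96% of all tested genes were that much higher and 2.01% that much lower. ITGA7 was just short of that line in shUSP16-1, with log2 differences of -0.54 in shUSP16-1 and -0.63 in shUSP16-2. With a pseudocount of 0.1 it passed the line in both, where 3.99% of genes were that much lower and 1.88% that much higher. It also passed with equal totals of reads, where 2.98% of genes were that much lower and 0.541% that much higher. Adjusted p of the 17 members in limma lay between 0.280 and 0.996, with an SE of 0.13 to 0.25 on the log2 scale.

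With no limit of size, 3 of the 17 members were higher in both libraries (ITGB1, LAMC1 and LAMA2), against 44.9% of all tested genes. Lower in both were 5 (ITGA2, ITGA6, ITGA7, ITGAE and ITGB5), against 32.4% of all tested genes, and 9 were split, against 22.7%. All 5 lower members were integrins, of 10 tested, while 2 laminins were higher in both and 0 lower, of 7 tested, but with equal totals of reads 2 laminins (LAMA1 and LAMB2) were lower too, and the difference between the families was not tested. Under that scaling 2 members were higher (LAMA2 and LAMC1, with ITGB1 split) and 8 lower, against 31.3% and 45.4% of all tested genes. The counting intervals of ITGB1, LAMC1 and LAMA2 lay above 1 in both libraries, a rule met by 28.0% of all tested genes. Those of ITGB5, ITGA7, ITGAE and ITGA2 lay below 1 in both, a rule met by 15.1%. With sums of reads, 0 members lay above 1 in both and 6 lay below (ITGB5, ITGA6, ITGA7, LAMA1, ITGAE and ITGA2), where 17% and 25% of all tested genes did so. The members' median log2 difference was -0.0020, against 0.042 over all tested genes. For integrins it was -0.11 and for laminins 0.0050.

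**Figure D3:**
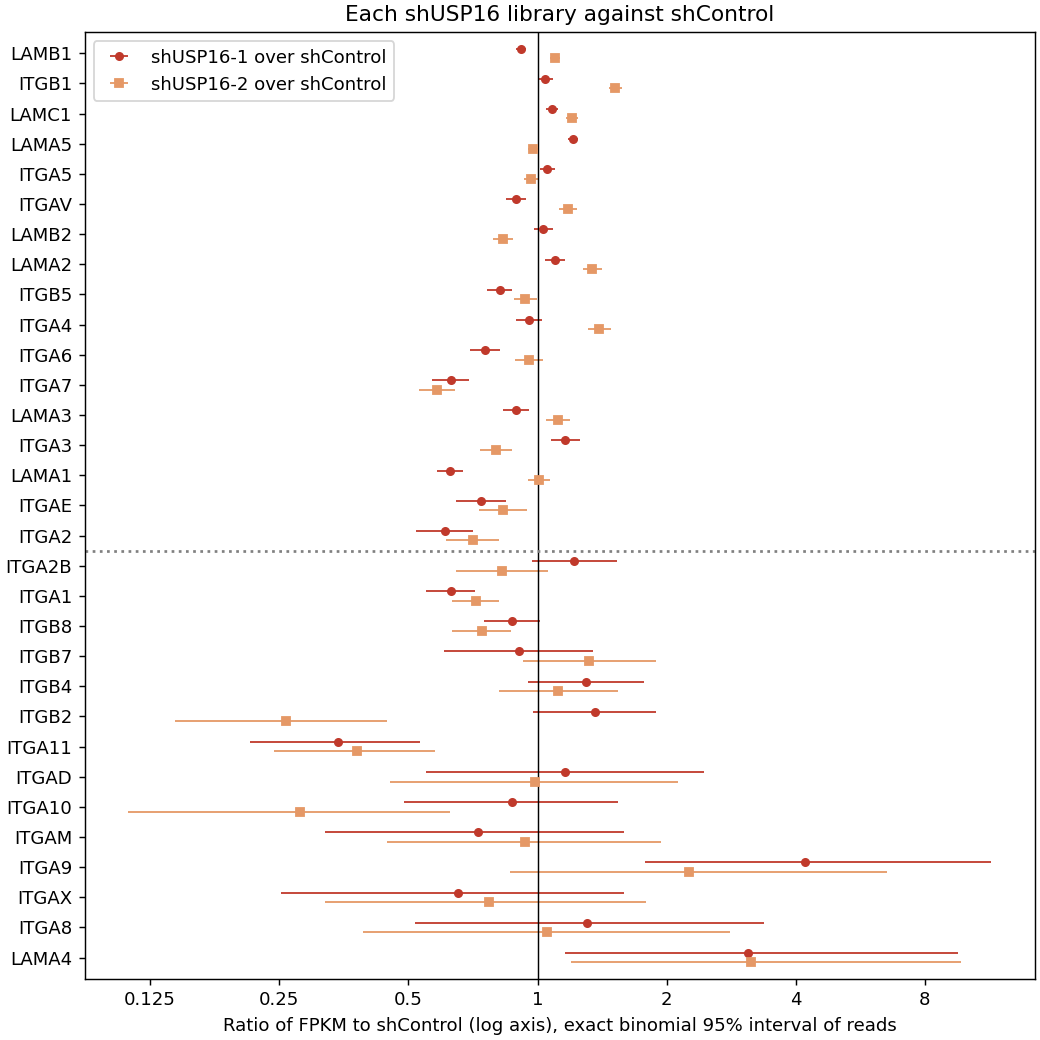
Ratio to shControl of each member with at least 30 reads over the 3 libraries, for shUSP16-1 and shUSP16-2, on a log axis with exact binomial 95% intervals of the reads. Members above the dotted line had a mean of at least 1 FPKM. ITGA7, ITGA2, ITGA1 and ITGA11 lie below 1 in both libraries, while LAMA5, ITGAV, ITGA3 and others lie on either side of it.

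Grouped by ligand, the collagen-binding α subunits (ITGA1, ITGA2, ITGA10 and ITGA11) lay below shControl in shUSP16-1 and in shUSP16-2 for each of the 4 genes. This grouping was set with the values known and is a description. ITGA2, the main epithelial collagen receptor subunit (ENSG00000164171, chromosome 5, 52989326 to 53094779, plus strand), had 1.15 and 1.33 FPKM in shUSP16-1 and shUSP16-2, against 1.89 FPKM in shControl, with ratios of 0.607 (exact binomial 95% interval 0.522 to 0.706) and 0.707 (0.612 to 0.815). ITGA1 (ENSG00000213949, chromosome 5, 52787896 to 52959210, plus strand) had 0.631 and 0.723 FPKM in shUSP16-1 and shUSP16-2, against 1.01 FPKM in shControl, with ratios of 0.627 (0.548 to 0.716) and 0.719 (0.633 to 0.815). Both neighbours on chromosome 5 were low in both libraries, by similar ratios.

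ITGA11, the collagen receptor subunit of fibroblasts (ENSG00000137809, chromosome 15, 68296533 to 68432162, minus strand), had 27 reads in shUSP16-1 and 31 reads in shUSP16-2, against 86 reads in shControl. Its ratios were 0.342 (exact binomial 95% interval 0.213 to 0.532) and 0.379 (0.243 to 0.577). ITGA10, known from cartilage, had 24 and 8 reads in shUSP16-1 and shUSP16-2, against 30 reads in shControl, and only the interval of shUSP16-2 excluded 1. Summed FPKM of the 4 came to 1.99 in shUSP16-1 and 2.19 in shUSP16-2, against 3.28 in shControl, ratios of 0.606 and 0.667, or 0.567 and 0.614 with sums of reads.

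None of the 4 passed a test. ITGA2 had a limma adjusted p of 0.445, with voom adjusted p values of 0.147 with the authors' totals and 0.0768 with sums of reads. In voom over the 18718 genes with at least 30 reads, ITGA11 had a log2 difference of -1.46 with an SE of 0.55 (adjusted p = 0.121) and ITGA1 one of -0.57 with an SE of 0.23 (adjusted p = 0.150). That fit called 3.75% of genes, 1.62% of all being lower, and, of the members, only ITGA7. In that fit a gene's own spread had no weight. Among the 14 of 21 low members with at least 30 reads, the intervals of ITGA1 and ITGA11 lay below 1 in both libraries and that of LAMA4 above 1 in both, where 16.8% and 4.17% of the 5153 low genes with as many reads met these rules. PELO, a gene within ITGA1 on the same strand, shares 475 exon bases with it and had 774 and 849 reads in shUSP16-1 and shUSP16-2, against 906 reads in shControl.

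The laminin-binding α subunits (ITGA3, ITGA6 and ITGA7) summed to 13.0 and 12.7 FPKM in shUSP16-1 and shUSP16-2, against 16.0 FPKM in shControl, ratios of 0.811 and 0.793. In shUSP16-1, ITGA6 and ITGA7 were below shControl and ITGA3 was above it. In shUSP16-2 all of them were below shControl, ITGA7 most and ITGA6 least. The RGD-binding subunits (ITGA5, ITGA8, ITGAV and ITGA2B) summed to 31.9 and 33.3 FPKM in shUSP16-1 and shUSP16-2, against 31.9 FPKM in shControl, ratios of 0.998 and 1.04, which turned to 0.934 and 0.959 with sums of reads. ITGA4 and ITGA9, which bind VCAM1 or tenascin, summed to 6.64 and 9.58 FPKM in shUSP16-1 and shUSP16-2, against 6.86 FPKM in shControl. ITGA9 had 27 and 15 reads in shUSP16-1 and shUSP16-2, against 7 reads in shControl, and 6.46% of its exon bases are shared with ITGA9-AS1 on the other strand. None of these sums was tested, and the differences between the classes were not tested either.

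**Figure D4:**
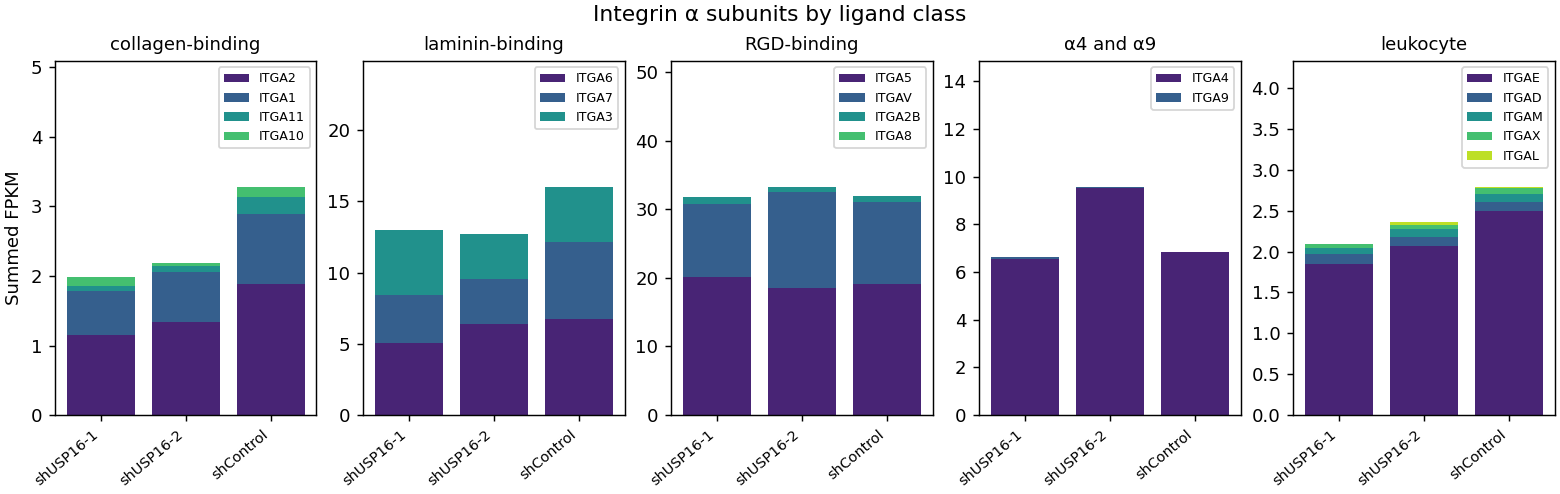
Summed FPKM of integrin α subunits by ligand class in shUSP16-1, shUSP16-2 and shControl, stacked by gene, each panel with its own axis from 0. The collagen-binding bars stand at 1.99 and 2.19 in the libraries labelled shUSP16 and at 3.28 in shControl, while the RGD-binding bars are nearly level.

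Genes that act with integrins and laminins were read from lists chosen with earlier results of these data known, and the named genes were picked for moving one way in both libraries. Their counts stand beside 44.9% of all tested genes higher in both, 32.4% lower, 22.7% split and a median log2 difference of 0.042. Of 41 focal adhesion adaptors and kinases, 31 were tested, 17 were higher in both libraries, 6 lower in both and 8 split, with a median log2 difference of 0.11. With equal totals of reads, 13 were higher and 10 lower, beside 31.3% and 45.4% of all tested genes. limma called 0 of the 31, as did voom with either kind of total, while voom over genes with at least 30 reads called 1 higher and 1 lower (LIMS2, an adaptor bound to ILK, named after its values were seen) of 38 fitted. FLNA, which encodes the actin crosslinker filamin A, had 61.7 and 66.0 FPKM in shUSP16-1 and shUSP16-2, against 49.5 FPKM in shControl (limma adjusted p = 0.307). FERMT1, a kindlin that binds integrin β tails, had 5.36 and 6.43 FPKM in shUSP16-1 and shUSP16-2, against 4.12 FPKM in shControl (limma adjusted p = 0.324). KANK2, an adaptor around focal adhesions, had 18.8 FPKM in each library labelled shUSP16, against 14.9 FPKM in shControl. None of these 3 passed in any fit.

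Of 16 basement membrane partners of laminin, 8 were tested, 4 were higher in both, 1 lower and 3 split, with a median of 0.10 on the log2 scale. limma called 0, as did voom with either kind of total, and voom over genes with at least 30 reads called HSPG2 higher. HSPG2, encoding perlecan, had 4.91 and 4.83 FPKM in shUSP16-1 and shUSP16-2, against 3.43 FPKM in shControl (limma adjusted p = 0.301, voom adjusted p = 0.0545 with the authors' totals and 0.0349 over genes with at least 30 reads). In the fit over genes with at least 30 reads a gene's own spread had no weight. AGRN, encoding agrin, which binds laminin, had 53.7 and 49.7 FPKM in shUSP16-1 and shUSP16-2, against 40.3 FPKM in shControl. FBLN1, encoding fibulin, had 34.1 and 37.3 FPKM in shUSP16-1 and shUSP16-2, against 30.1 FPKM in shControl, and COL4A5, a type IV collagen chain, had 7.06 and 6.24 FPKM, against 7.58 FPKM in shControl. COL4A5 was the only one of these named genes below shControl.

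Of 19 other laminin receptors, tetraspanins and hemidesmosome genes, 17 were tested, 12 were higher in both, 5 lower (BCAM, BSG, CAV1, CD63 and DST) and 0 split, with a median of 0.19 on the log2 scale. With equal totals of reads, 8 were higher and 6 lower. limma called 0, as did voom with either kind of total, and voom over genes with at least 30 reads called SDC1 higher. SDC1, a syndecan co-receptor, had 18.7 and 20.3 FPKM in shUSP16-1 and shUSP16-2, against 13.7 FPKM in shControl (limma adjusted p = 0.280, and 0.0419 in voom over genes with at least 30 reads). CD151, a tetraspanin that binds laminin-binding integrins, had 29.96 and 27.6 FPKM in shUSP16-1 and shUSP16-2, against 21.3 FPKM in shControl (limma adjusted p = 0.294). CD63, another tetraspanin, had 119 and 114 FPKM in shUSP16-1 and shUSP16-2, against 135 FPKM in shControl (limma adjusted p = 0.422). The tetraspanins thus lay on different sides of shControl. RPSA, a 40S ribosomal protein also described as a laminin receptor, whose pseudogene copies make its reads uncertain, had 434 and 417 FPKM in shUSP16-1 and shUSP16-2, against 335 FPKM in shControl. SLC3A2, which encodes a heavy chain of amino acid transporters that binds integrin β tails, had 101 and 95.9 FPKM in shUSP16-1 and shUSP16-2, against 79.5 FPKM in shControl.

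Of 18 integrin ligands other than laminins, 7 were tested, 3 were higher in both, 1 lower and 3 split, with a median of 0.0032 on the log2 scale. limma called 0 of them. voom called COL1A1 higher and CYR61 lower with either kind of total, in fits that called 2.51% and 4.02% of all genes, and over genes with at least 30 reads it called LTBP1 higher as well. CYR61, a matricellular ligand of several integrins and a target of YAP, had 10.9 and 19.9 FPKM in shUSP16-1 and shUSP16-2, against 35.0 FPKM in shControl, a log2 difference of -1.19 (SE 0.34, limma adjusted p = 0.292, voom adjusted p = 0.00376). COL1A1, a type I collagen chain bound by the collagen receptors and also one of the fibroblast markers above, had 71.1 and 78.4 FPKM in shUSP16-1 and shUSP16-2, against 52.2 FPKM in shControl, a log2 difference of 0.51 (SE 0.12, limma adjusted p = 0.280, voom adjusted p = 0.0336). CYR61 was thus lower and COL1A1 higher in both libraries. LTBP1, which anchors latent TGF-β in the matrix, had 65.1 and 64.4 FPKM in shUSP16-1 and shUSP16-2, against 47.6 FPKM in shControl (limma adjusted p = 0.280, and 0.0318 in voom over genes with at least 30 reads). TGFB1, whose latent form binds ITGAV integrins, had 24.6 and 26.9 FPKM in shUSP16-1 and shUSP16-2, against 22.3 FPKM in shControl.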

How the data were processed

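RNA-seq of 3 HGC-27 libraries, grouped by title, was deposited by the authors as FPKM values per gene. No source used here gives the aligner, counter or strand setting. Mouse builds stand in the submitters' processing notes, but all 58735 gene IDs and coordinates equal those of human GENCODE release 29, and deposited gene lengths equal the union of annotated exons for all 38 members, so coordinates are on GRCh38. FPKM times gene length was a whole multiple of 1 step per library for 100% of values above 0 (tolerance 0.01 reads), which gave whole reads. The totals implied by the authors' scaling were 1.01, 0.994 and 1.08 times the sums of reads in shUSP16-1, shUSP16-2 and shControl.

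limma 3.58.1 (R 4.3.3, mean trend, Benjamini-Hochberg over all genes, threshold 0.05) was fitted to log2(FPKM + 1) where a gene's mean reached 1 FPKM, so folds of low genes are understated. There was 1 residual degree of freedom, from the 2 libraries labelled shUSP16, and the lone shControl library is assumed to vary like them. limma draws a gene's spread towards one shared over genes, weighted by prior degrees of freedom. These were 4.05 on log2(FPKM + 1), 18.7 in voom with the authors' totals and 27.1 with sums of reads. In voom over genes with at least 30 reads they were infinite, so a gene's own spread had no weight. An exact permutation test of 2 libraries against 1 cannot reach 0.05. Intervals are exact binomial (Clopper-Pearson) at 95% and, like the floor of 3 reads, cover counting error only. Alternatives were another pseudocount, filters, scalings, biotypes, trends, voom, thresholds and left-out libraries; voom over genes with at least 30 reads was added after seeing the data. Tables were handled with pandas 2.3.3 and numpy 2.4.6 in Python 3.11.15, intervals came from scipy 1.17.1, and plots from matplotlib 3.10.9.

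The members, lists and tests were chosen with earlier results of these data known. All members were described, those with a mean of at least 1 FPKM by library; from each list, up to 4 genes were named that moved one way in both libraries labelled shUSP16, ranked by the smaller of both changes, as was USP16. One laminin gene and a gene of the adhesion list enter the counts and sums but are not reported here by name.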

Additional observations from a re-analysis of the deposited data

How the results depend on the processing

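The number of genes called by limma was 0 with the pseudocount of 0.1, no filter on low values, equal totals, median ratio size factors, no trend, a robust trend or an adjusted p threshold of 0.1, but 13 with a mean of at least 5 FPKM, 48 among protein-coding genes only, 348 with voom and the authors' totals, 557 with voom and sums of reads, and 702 with voom over genes with at least 30 reads. Members called were 0 throughout except 1 (ITGA7) in each of these 3 voom fits. Members at least 1.5-fold lower in both libraries were 0, but 1 (ITGA7) with a pseudocount of 0.1 or equal totals; leaving out either library labelled shUSP16 gave 0 to 1, and the same 0 to 1 for members at least 1.5-fold higher (ITGB1, in shUSP16-2 alone). Of 181 values of the 17 members under other settings, 172 kept their direction and side of the threshold, 3 of ITGA7 passed it and 6 reversed. The reversed ones were LAMB1 (-0.10 with equal totals, -0.10 with voom and sums of reads), ITGA5 (-0.089 and -0.094) and ITGAV (-0.066 and -0.071), which follow from the construction of that scaling, since it lowers both libraries relative to shControl. The 181 values do not include left-out libraries. Leaving out each library labelled shUSP16 in turn, the log2 difference ran over -0.12 to 0.13 for LAMB1, -0.037 to 0.27 for LAMA5, -0.045 to 0.071 for ITGA5, -0.15 to 0.22 for ITGAV, -0.25 to 0.043 for LAMB2, -0.058 to 0.43 for ITGA4, -0.13 to 0.13 for LAMA3, -0.25 to 0.17 for ITGA3 and -0.52 to 0.011 for LAMA1. The sign for each of these genes thus changed with the library left out. No paired analysis was possible because there is 1 shControl library and it carries no replicate number. Depth limits the low members: 7 of 21 had under 30 reads in all and entered no count fit.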

Other observations

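The deposited table also holds 7 non-coding genes named after members. LAMC1-AS1 had 58 reads (4.05 FPKM) in shUSP16-1 and 39 reads (2.63 FPKM) in shUSP16-2, against 59 reads (3.78 FPKM) in shControl, while LAMC1 itself was above shControl in both. ITGA9-AS1 had 40 and 67 reads in shUSP16-1 and shUSP16-2, against 32 reads in shControl, the same direction as ITGA9. The other 5 (ITGA6-AS1, ITGB1-DT, ITGB2-AS1, ITGB5-AS1 and LAMA5-AS1) had at most 5 reads in any library.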
